A study of Mus musculus with 15 samples.

Results

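The enzymes and enzyme subunits by which macrophages make nitric oxide, superoxide, prostaglandins and kynurenines were followed in RAW 264.7 cells, a mouse macrophage cell line. The group was a fixed list of 7 genes, and every listed gene with a row among the 561 genes of the expression table was taken. Nos2, Cybb, Ncf4 and Ptgs2 had a row, so 4 of 7 genes are described. The other listed genes are not analysed here. The cells were incubated for 24 h with LPS and with extracellular vesicles (EVs) from mouse plasma, and mRNA was counted with the nanoString Mouse Immunology panel.

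There were 15 samples in 5 groups of 3. The EV donors were young female C57BL/6J mice, either sham mice or mice taken 3 or 7 days after 2 or 9 gray (Gy) of whole-body ionizing radiation (WBIR) from a Cesium-137 source. The groups are called sham, 2 Gy day 3, 2 Gy day 7, 9 Gy day 3 and 9 Gy day 7, and every group, sham included, received both LPS and EVs. Samples without LPS or without EVs are not analysed here, so each value compares EV sources in stimulated cells and none measures the response to LPS itself. RAW 264.7 is 1 cell line, and the labels do not say whether the 3 samples of a group came from separate EV pools or cultures, so the p-values measure the spread between these samples, which may be technical. Replicates 1 and 2 of 9 Gy day 3 carry day 3 in the title but day 7 in another label. They were placed by title. Without them 9 Gy day 3 is 1 sample, whose spread is then assumed to equal that of the other groups.

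Activated macrophages turn arginine, oxygen, arachidonic acid and tryptophan into short-lived effectors. Nos2 encodes inducible nitric oxide synthase, which makes nitric oxide from arginine. Cybb encodes gp91phox, the membrane-bound catalytic subunit of the phagocyte NADPH oxidase, and Ncf4 encodes p40phox, a cytosolic subunit of the same complex, which makes superoxide. Ptgs2 encodes cyclooxygenase-2, the inducible enzyme that starts prostaglandin synthesis. LPS is a textbook inducer of Nos2 and Ptgs2 through NF-kB and interferon signaling.

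Promoter sequences are shown for Ptgs2 and Cybb, the members with an entry in the RefSeq promoter table (GRCm38.p6), because the letters that NF-kB and interferon-activated factors recognize lie in such windows. Nos2 and Ncf4 are named only. Each window holds 250 bases before and 50 bases from the transcription start, read 5′ to 3′ on the strand of the gene, and capitals mark matches to the motifs searched on both strands. The Ptgs2 window is chr1:150099781-150100080 on the plus strand and the Cybb window is chrX:9469275-9469574 on the minus strand.
Ptgs2: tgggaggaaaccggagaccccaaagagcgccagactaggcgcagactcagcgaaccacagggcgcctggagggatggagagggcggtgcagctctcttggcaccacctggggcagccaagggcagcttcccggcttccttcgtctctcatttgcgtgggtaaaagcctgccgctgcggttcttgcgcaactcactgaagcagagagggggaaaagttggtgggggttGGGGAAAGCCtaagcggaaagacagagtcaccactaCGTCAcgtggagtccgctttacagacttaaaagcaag
Cybb: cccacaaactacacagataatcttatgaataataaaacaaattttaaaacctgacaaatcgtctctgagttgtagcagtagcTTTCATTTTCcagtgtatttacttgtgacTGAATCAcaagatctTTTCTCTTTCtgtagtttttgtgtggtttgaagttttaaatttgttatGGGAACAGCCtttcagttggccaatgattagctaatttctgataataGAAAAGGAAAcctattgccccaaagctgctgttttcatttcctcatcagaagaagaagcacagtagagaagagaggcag
The Ptgs2 window held an NF-kB match (GGGNNNNNCC) 23 to 14 bases before the start, and TGACG, the core of a cyclic AMP response element, on the minus strand at bases 14 to 18 after it. The Cybb window held the interferon response pattern GAAANNGAAA at 3 places, with first bases 168, 124 and 29 before the start, an AP-1 match (TGANTCA) 139 bases before it and an NF-kB match 76 bases before it. The NF-kB letters occur in 50.8% of the 32851 promoters of the table, the interferon pattern in 3.44%, TGANTCA in 7.81% and TGACG in 20.8%. TATAAA (13.6% of promoters) and the STAT pattern TTCNNNGAA (8.30%) were not in either window. A match is a description of the letters and does not show that a factor bound there.

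The panel holds 14 housekeeping genes. Counts of a sample were divided by its geometric mean over these genes, relative to the other samples, and the result is called a housekeeping-scaled count. Total counts were 43176 to 87899 in the 9 Gy day 3 samples and 453178 to 837995 in the other 12, so the day 3 values rest on far fewer molecules. The scaling matters for these genes. Relative to the geometric mean, single housekeeping genes moved between a log2 difference of -0.81 for Rpl19 and 1.53 for Tubb5 from sham to the 6 samples with 9 Gy EVs. Over the 269 tested genes, the median log2 fold change stood at -0.46 at 9 Gy day 3 and -0.45 at 9 Gy day 7 under housekeeping scaling, and 0.56 and 0.65 when samples were scaled to total counts. The 7 macrophage markers with a row summed to 4838 to 7915 housekeeping-scaled counts in the sham and 2 Gy samples and 2156 to 3617 in the 9 Gy samples. They did not all fall. In the 9 Gy against the 2 Gy samples, Csf1r was higher (log2 fold change 1.77) and Tlr4 differed little (-0.23). Cd14 (-0.98), Emr1 (-1.31), Itgam (-1.58), Fcgr1 (-1.45) and Fcgr3 (-1.21) were lower under this scaling. The part of the markers in the results below was not tested. A housekeeping-scaled count is relative to other genes of the same sample and does not measure the number of cells.

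Ptgs2, Cybb and Ncf4 were lower with 9 Gy EVs than with sham EVs at both days, while Nos2 did not pass the test. At 9 Gy day 3, 3 of 4 members were lower, and 41.3% of the 269 genes tested were called lower (adjusted p under 0.05, edgeR's quasi-likelihood test, Benjamini-Hochberg over all genes tested). At 9 Gy day 7, the count was again 3 of 4, against 49.1% of all genes. Scaled to total counts, no member was called lower at day 3 and Nos2 was called higher (log2 fold change 0.63) while 12.3% of all genes were called lower and 45.0% higher. At day 7 the same scaling called Ptgs2 lower (adjusted p = 0.0122) and Nos2 and Ncf4 higher, against 11.5% of all genes lower and 53.2% higher. The same 9 Gy samples against the 2 Gy samples gave 3 of 4 members lower, against 52% of all genes. The 3 comparisons share samples, so their counts are not independent of each other.

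**Figure D1:**
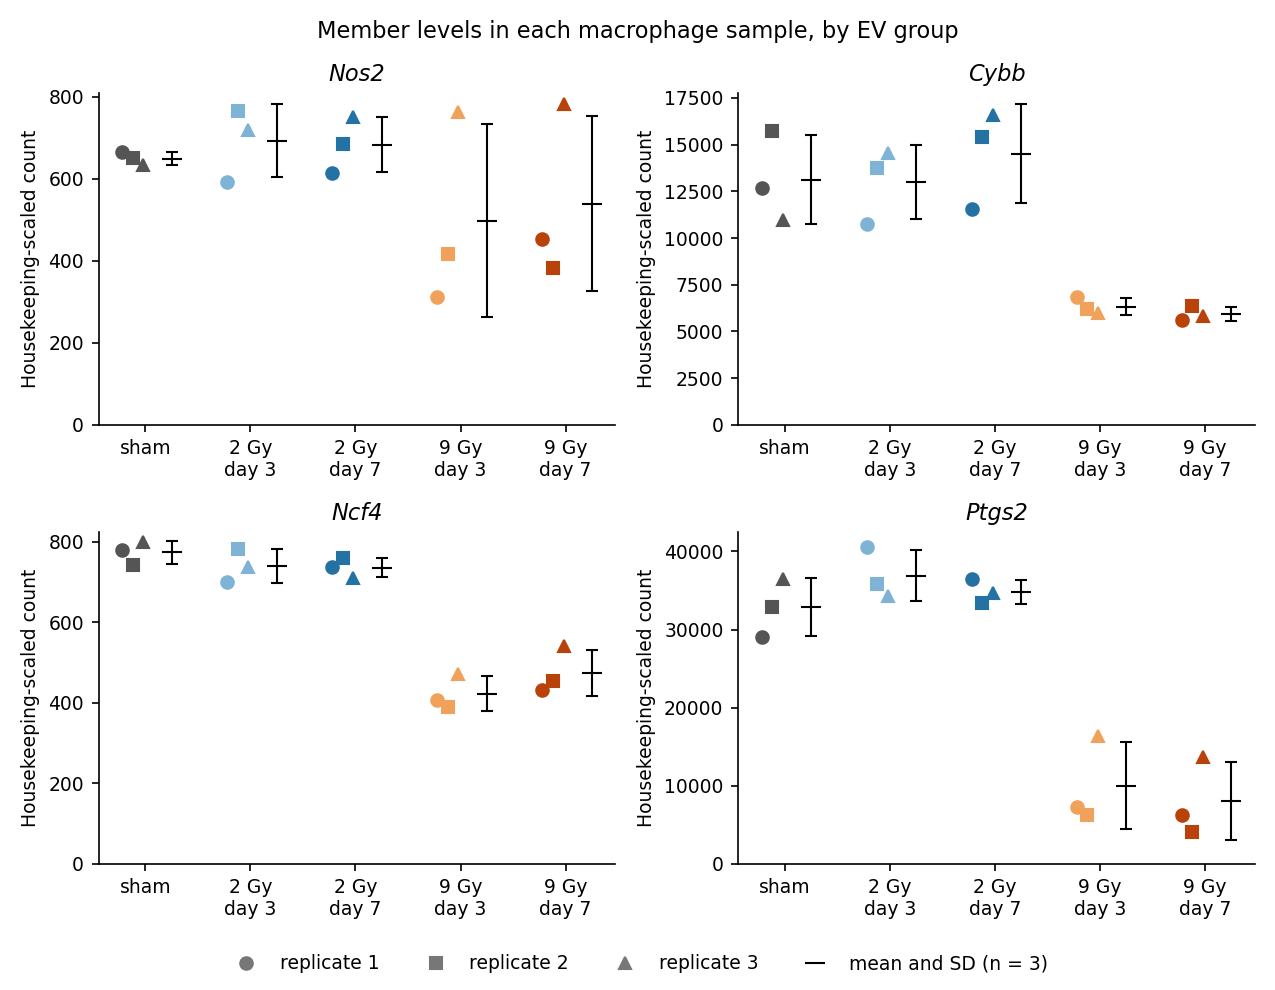
Housekeeping-scaled count of each member (vertical axes, starting at 0) in the 15 samples, by EV group, with replicates as separate symbols and the mean with SD (n = 3) in black. For Cybb, Ncf4 and Ptgs2 the 6 samples with 9 Gy EVs lie below the 9 others, and for Nos2 replicate 3 of both 9 Gy groups lies at 762 and 782, inside or above the range of the 9 others.

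Ptgs2 showed the largest fall of the 4 members under housekeeping scaling. Its raw counts were 26237, 34848 and 39480 in sham, 1005, 1273 and 4035 in 9 Gy day 3, and 10432, 6484 and 23656 in 9 Gy day 7. After scaling, the means were 32840 ± 3706 in sham, 9979 ± 5554 in 9 Gy day 3 and 8018 ± 5024 in 9 Gy day 7 (SD, n = 3 each). All 6 samples with 9 Gy EVs, from 4078 to 16363, were below the lowest of the 9 sham and 2 Gy samples, at 29098. Replicate 3 was the highest Ptgs2 sample in both 9 Gy groups, at 2.41 and 2.64 times the mean of replicates 1 and 2, and the 9 Gy groups overlapped each other. The fall was 3.29-fold at day 3 (log2 fold change -1.72, SE 0.39, adjusted p = 0.00266) and 4.10-fold at day 7 (-2.03, SE 0.40, adjusted p = 0.000591). Without replicate 3 of 9 Gy day 7 the latter was 6.33-fold (-2.66). By the size of the fall, Ptgs2 ranked 32 and 21 of 269 genes. As a share of all counts, Ptgs2 was 5.02% ± 0.556 in sham, 3.01% ± 1.37 in 9 Gy day 3 and 2.51% ± 1.22 in 9 Gy day 7 (SD, n = 3). Scaled to total counts the day 3 difference did not pass (log2 fold change -0.74, adjusted p = 0.0580), nor did it with the conflicting samples left out (-1.01, adjusted p = 0.141).

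Cybb, the catalytic oxidase subunit, fell about as much at both days. Its raw counts were 11443, 16644 and 11883 in sham, 937, 1262 and 1471 in 9 Gy day 3, and 9299, 10131 and 10095 in 9 Gy day 7. The scaled means were 13133 ± 2396 in sham, 6330 ± 441 in 9 Gy day 3 and 5941 ± 389 in 9 Gy day 7 (SD, n = 3). The 9 Gy groups overlapped each other but not the sham and 2 Gy groups. The highest 9 Gy sample was at 6820 and the lowest sham or 2 Gy sample at 10746, and no replicate stood apart in the 9 Gy groups. The fold changes were 2.08-fold lower at day 3 (log2 fold change -1.05, SE 0.17, adjusted p = 0.000159) and 2.21-fold lower at day 7 (-1.14, SE 0.17, adjusted p = 6.25e-05). Cybb held 2.00% ± 0.291 of all counts in sham, 1.98% ± 0.266 in 9 Gy day 3 and 1.96% ± 0.305 in 9 Gy day 7 (SD, n = 3). The fall of Cybb therefore depends on the scaling, and with total counts its log2 fold changes were -0.02 and -0.03. With the conflicting samples left out, the day 3 value was -1.14 (adjusted p = 0.00757).

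Ncf4, the p40phox subunit, was also lower at both days. Raw counts were 702, 786 and 864 in sham, 56, 79 and 116 in 9 Gy day 3, and 713, 720 and 933 in 9 Gy day 7. The lowest of these, 56 in 9 Gy day 3 replicate 1, shows how few molecules the shallow samples hold. Scaled means were 773 ± 28.7 in sham, 422 ± 42.9 in 9 Gy day 3 and 474 ± 57.5 in 9 Gy day 7 (SD, n = 3). The 6 samples with 9 Gy EVs, at 388 to 539, lay below the 9 others, at 699 to 799. The fall was 1.83-fold at day 3 (log2 fold change -0.87, SE 0.13, adjusted p = 7.59e-05) and 1.63-fold at day 7 (-0.71, SE 0.12, adjusted p = 0.00022). With samples scaled to total counts the direction turned, to 0.15 at day 3 and 0.39 at day 7, and under TMM, edgeR's trimmed-mean scaling, the day 7 difference of -0.22 did not pass (adjusted p = 0.102). With the conflicting samples left out, the day 3 value was -0.72 (adjusted p = 0.0105).

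Nos2, the nitric oxide synthase, lay close together in sham and spread widely at 9 Gy. Its raw counts were 599, 688 and 686 in sham, 43, 85 and 188 in 9 Gy day 3, and 749, 608 and 1353 in 9 Gy day 7. After scaling, the sham samples were within 634 to 664, those of 9 Gy day 3 at 313, 418 and 762, and those of 9 Gy day 7 at 452, 382 and 782. Replicates 1 and 2 of each 9 Gy group lay below the 9 sham and 2 Gy samples, and replicate 3 of each did not. The log2 fold change was -0.36 at day 3 (SE 0.30, adjusted p = 0.306) and -0.27 at day 7 (SE 0.28, adjusted p = 0.42). Without replicate 3 of both 9 Gy groups, which was chosen after the values were seen, the values were -0.82 (adjusted p = 0.0018) and -0.64 (adjusted p = 0.00344), and all 4 members were called lower at each day, against 40.9% and 51.3% of all genes tested. The sign of the Nos2 difference changed with the scaling: it was 0.11 and 0.21 under TMM and 0.63 and 0.79 (adjusted p = 0.0327 and 0.00673) with total counts. With the conflicting samples left out, the day 3 value was 0.23 (adjusted p = 0.627). The direction of Nos2 is thus not settled by these counts. As a measured fact beside it, replicate 3 was at least 1.5 times the mean of replicates 1 and 2 in both 9 Gy groups for 28 of 269 genes (10.4%). Nos2 and Ptgs2 were among these 28 genes and Cybb (0.916 and 0.974) and Ncf4 (1.18 and 1.22) were not.

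**Figure D2:**
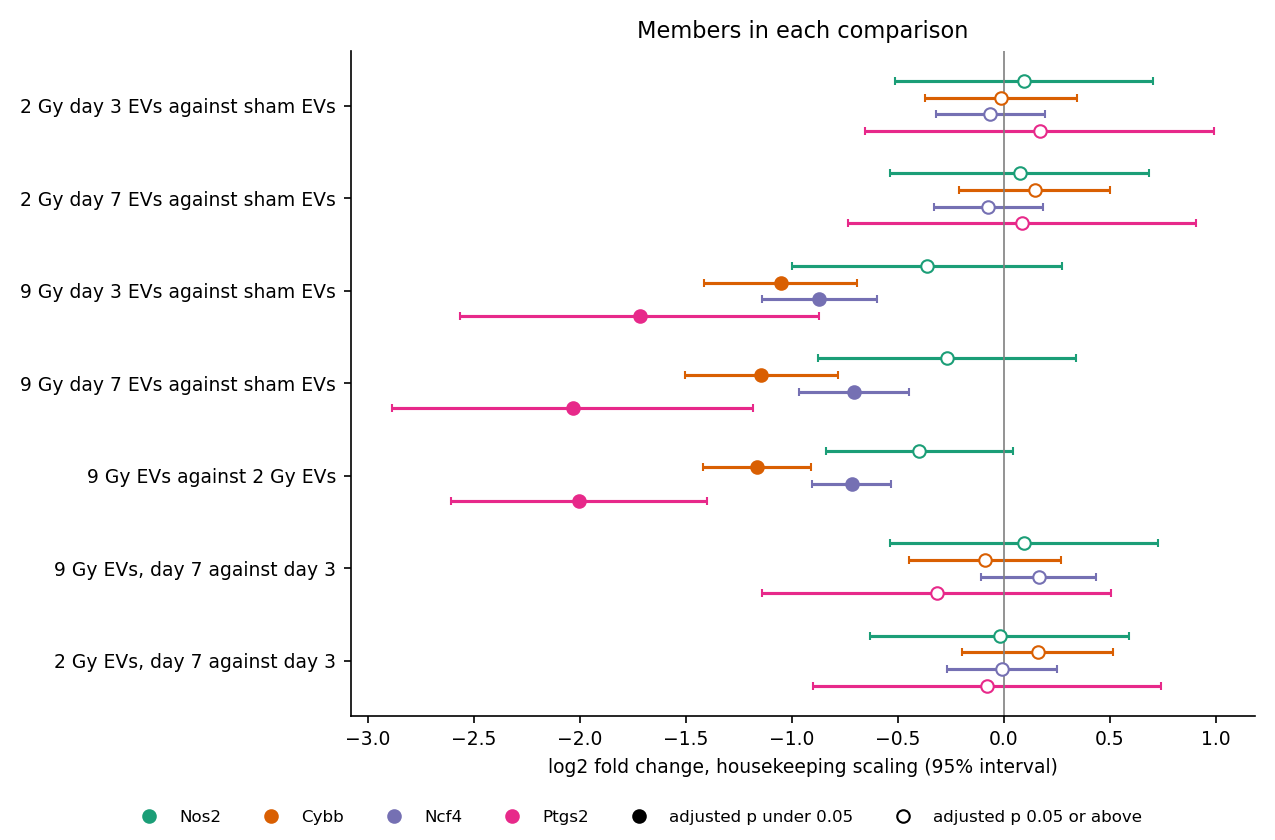
Log2 fold change of each member (horizontal axis, housekeeping scaling) in 7 comparisons, with 95% intervals from edgeR's fit. Filled points have an adjusted p under 0.05. Ptgs2, Cybb and Ncf4 are filled and left of 0 in the 3 comparisons of 9 Gy EVs with sham or 2 Gy EVs, Nos2 is open in each, and in the other 4 comparisons every interval spans 0.

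The 2 Gy groups were set against sham to ask whether the lower dose had an effect on the same genes. No member passed at 2 Gy day 3 or at 2 Gy day 7, and 0% of the 269 genes were called in either comparison with edgeR. At an unadjusted p under 0.05, 7 genes at day 3 and 1 gene at day 7 were counted, none of them a member. DESeq2 with the same scaling called 1 gene at day 3, no member, and 0 at day 7. The Nos2 mean was 693 ± 89.4 at 2 Gy day 3 and 683 ± 67.7 at 2 Gy day 7, against 649 ± 14.97 in sham (SD, n = 3). Ptgs2 was at 36889 ± 3295 and 34857 ± 1549, Cybb at 13003 ± 1997 and 14522 ± 2634, and Ncf4 at 739 ± 41.8 and 735 ± 23.8. The Cybb means and the Ptgs2 mean at day 7 lie within the range of the sham samples. The others lie outside it. Nos2 was above 634 to 664, Ptgs2 at day 3 above 29098 to 36509, and Ncf4 below 742 to 799. The 95% intervals leave room for moderate changes, from 0.64 to 1.98 times sham for Ptgs2 at day 3 and from 0.80 to 1.14 times for Ncf4.

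The 9 Gy and 2 Gy samples, with both days of a dose together, gave the tightest estimates. Ptgs2 was 4.01-fold lower with 9 Gy EVs (log2 fold change -2.003, SE 0.28, adjusted p = 2.59e-05), Cybb 2.24-fold lower (-1.16, SE 0.12, adjusted p = 1.2e-06) and Ncf4 1.65-fold lower (-0.72, SE 0.09, adjusted p = 6.84e-06). Nos2 differed by -0.40 (SE 0.20, adjusted p = 0.0956). Nos2 was called lower without replicate 3 of 9 Gy day 3 (-0.63, adjusted p = 0.00697) or of 9 Gy day 7 (-0.58, adjusted p = 0.0104). It was at 0.06 under TMM (adjusted p = 0.795) and at 0.71 with total counts (adjusted p = 0.00118). This fit treats the 2 days of a dose as independent samples. With total counts Cybb was at -0.01 and Ncf4 turned to 0.41 (adjusted p = 0.000341).

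The day on which the EVs were taken was compared within each dose. With 9 Gy EVs, day 7 against day 3 gave no called member and 0% of genes called, with log2 differences from -0.32 for Ptgs2 to 0.16 for Ncf4. With 2 Gy EVs, no member and 0% of genes were called, from -0.08 for Ptgs2 to 0.16 for Cybb. A test of whether the day difference depended on dose also called no member and 0% of genes, with member values from -0.25 for Cybb to 0.17 for Ncf4. At an unadjusted p under 0.05 these 3 tests gave 6, 4 and 4 genes, none a member, and DESeq2 called 0 in each. The replicate numbers were taken to pair the days within a dose, from correlations in these same counts and not from a label. The blocked fit is given on that footing. With the 6 samples with 2 Gy EVs alone and the replicate as a block, Cybb was higher at day 7 (log2 difference 0.15, SE 0.04, adjusted p = 0.0401), among 27 genes called. When the blocked fit held all 15 samples, the Cybb difference of 0.16 did not pass (adjusted p = 0.977).

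In order of group means, Ptgs2 ran from 2 Gy day 3 through 2 Gy day 7, sham and 9 Gy day 3 to 9 Gy day 7. Cybb ran from 2 Gy day 7 through sham, 2 Gy day 3 and 9 Gy day 3 to 9 Gy day 7. For Ncf4 sham was highest and 9 Gy day 3 lowest, and for Nos2 2 Gy day 3 was highest and 9 Gy day 3 lowest. Of neighbours in these orders, the groups on either side of the step from sham and 2 Gy to 9 Gy did not overlap for Ptgs2, Cybb and Ncf4. For Nos2 they overlapped, and neighbours on the same side of that step overlapped for each of the 4 genes. The share of all genes tested without overlap at this step is not given here. Under housekeeping scaling 52% of all genes tested were called lower against 2 Gy EVs, so the separation cannot be read as particular to these members.

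Ratios of 2 members within a sample do not depend on how samples are scaled, and 4 such comparisons were made with exact two-sided permutation tests over samples, adjusted over the 4 by Benjamini-Hochberg. The ratio compares how 2 probes changed and not how much mRNA each gene had. The ratio of Ptgs2 to Nos2 counts was 43.8, 50.7 and 57.6 in sham, 23.4, 14.98 and 21.5 in 9 Gy day 3, and 13.9, 10.7 and 17.5 in 9 Gy day 7. Each of the 6 samples with 9 Gy EVs was below each sham sample and each 2 Gy sample, the lowest of which was at 46.2. The log2 ratio was lower by 3.07-fold against sham (difference -1.62, SE 0.21, exact permutation p = 0.0238, adjusted p = 0.0317). Against 2 Gy EVs it was lower by 3.19-fold (difference -1.67, SE 0.20, exact permutation p = 0.00216, adjusted p = 0.00866). Both p-values are the smallest that these sample numbers allow. They treat the 6 samples of a dose as independent. With same-numbered samples of a dose averaged over the days, 3 values stand against 3, the smallest possible exact p is 0.1, and neither comparison of this ratio, at 0.1 each, nor that of Cybb to Ncf4 below could pass. The Ptgs2 difference was therefore more negative than that of Nos2 whatever the scaling. Replicate 3, high in both genes, lay between the other replicates in this ratio at 9 Gy day 3 and above them at 9 Gy day 7.

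**Figure D3:**
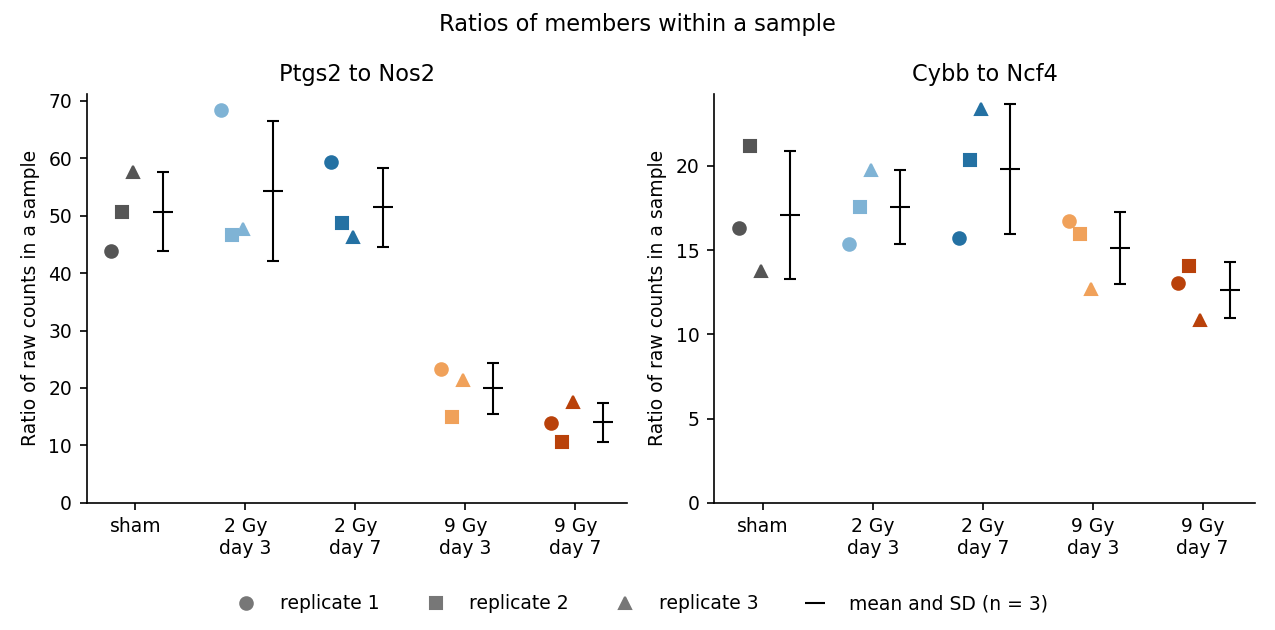
Ratio of raw counts within a sample (vertical axes, starting at 0) for Ptgs2 to Nos2 and for Cybb to Ncf4, by EV group, with replicates as separate symbols and the mean with SD (n = 3) in black. The Ptgs2 to Nos2 ratio is at most 23.4 in the 6 samples with 9 Gy EVs and at least 43.8 in the 9 others, whereas the Cybb to Ncf4 ratios overlap.

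For the oxidase pair, the ratio of Cybb to Ncf4 was 16.3, 21.2 and 13.8 in sham, 16.7, 16.0 and 12.7 in 9 Gy day 3, and 13.0, 14.1 and 10.8 in 9 Gy day 7. The groups overlapped. The log2 ratio differed by -0.29 from sham (SE 0.20, exact permutation p = 0.19, adjusted p = 0.19) and by -0.43 from 2 Gy EVs (SE 0.13, exact permutation p = 0.013, adjusted p = 0.026). Without replicate 3 of both 9 Gy groups the latter was at -0.31 and did not pass (exact permutation test, adjusted p = 0.0762).

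Each housekeeping gene with a mean of at least 100 counts was also used alone as the reference for 9 Gy against sham EVs, 10 genes in all. The log2 difference of Ptgs2 ran from -3.05 to -1.22 and was below 0 with 10 of 10 references. Cybb ran from -2.11 to -0.27, also below 0 with 10 of 10. Ncf4 ran from -1.81 to 0.02 and was below 0 with 9 of 10, and Nos2 from -1.43 to 0.40 and below 0 with 5 of 10.

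**Figure D4:**
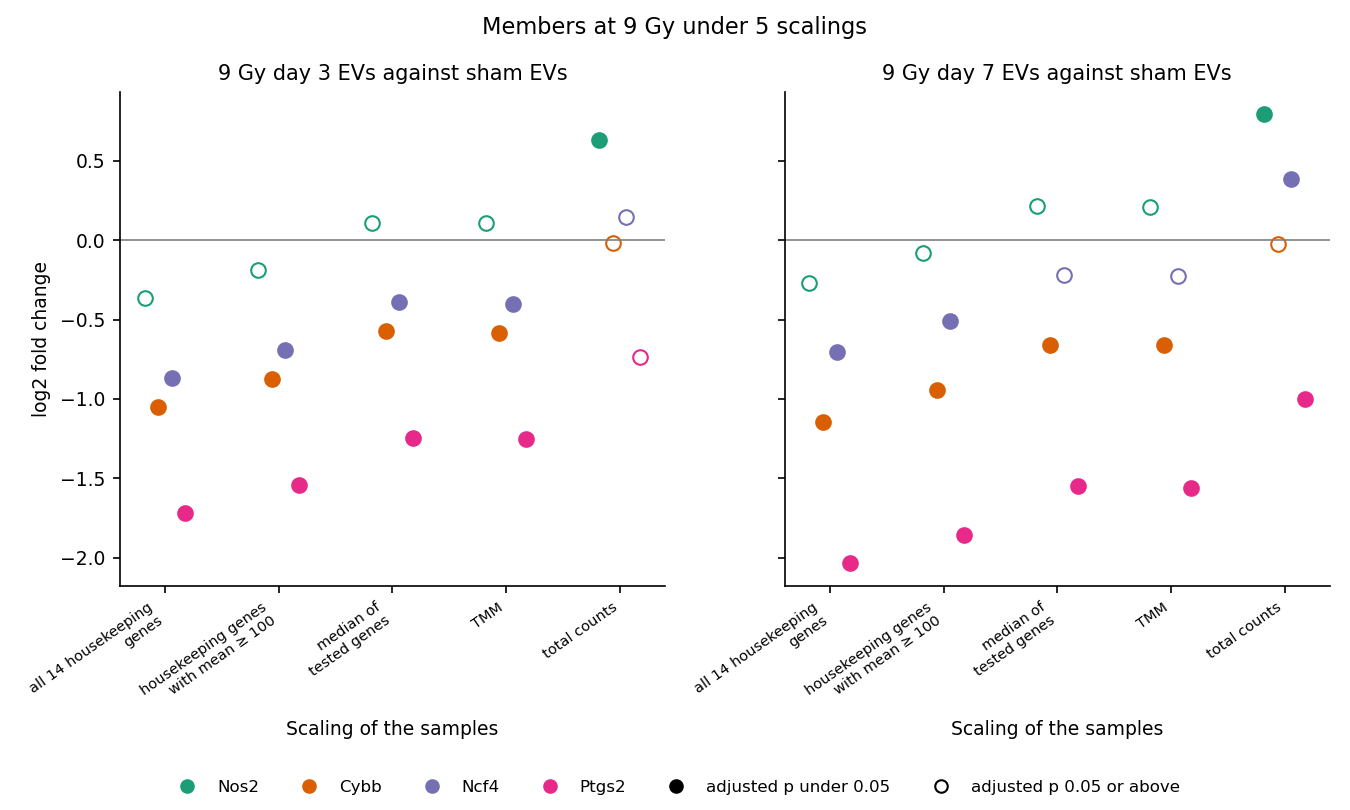
Log2 fold change of each member against sham EVs (vertical axis) for 9 Gy day 3 and 9 Gy day 7 EVs under 5 ways of scaling the samples (horizontal axis). Filled points have an adjusted p under 0.05. Ptgs2 is below 0 under each scaling, Cybb is at -0.02 and -0.03 with total counts, Ncf4 is above 0 with total counts, and Nos2 changes sign.

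The genes whose housekeeping-scaled log2 counts ran most alike over the 15 samples are given as a description, since the points share the scaling, the depth and the dose step. For Ptgs2 they were Il1a (Pearson r = 0.978) and Il1rn (0.978), an inflammatory cytokine and the antagonist of its receptor. For Nos2 they were the monocyte chemokine Ccl2 (0.938) and Tgfb1 (0.869). For Cybb they were Tapbp (0.973), which encodes the peptide-loading factor tapasin, and the housekeeping gene Eef1g (0.966), which is itself part of the scaling. For Ncf4 they were the cytokine receptor gene Crlf2 (0.986) and the cytokine subunit gene Ebi3 (0.985). Among the members, r was highest for Ncf4 with Ptgs2 (0.934) and lowest for Nos2 with Cybb (0.539).

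Of the other genes of these pathways, few were above the count minimum. Of 26 genes of nitric oxide, arginine and reactive oxygen metabolism, 5 had a row and 3 were tested, the members Nos2, Cybb and Ncf4. The superoxide-producing oxidases Nox1 and Nox4 had 1 to 16 and 1 to 11 raw counts per sample and were not tested. Of 17 prostaglandin, leukotriene and lipid mediator genes, 5 had a row and 2 were tested, both lower at both days under housekeeping scaling, as were 41.3% and 49.1% of all genes tested. One of them was the member Ptgs2. The second was Ptafr, the receptor of platelet-activating factor, at 253 ± 19.3 in sham, 134 ± 43.4 in 9 Gy day 3 and 120 ± 13.99 in 9 Gy day 7 (SD, n = 3), with log2 fold changes of -0.96 and -1.08 that turned to 0.07 and 0.03 with total counts. With the conflicting samples left out, the Ptafr value at day 3 was -1.38. The prostaglandin E2 receptor gene Ptger4 and the leukotriene B4 receptor genes Ltb4r1 and Ltb4r2 had at most 10, 15 and 23 raw counts. Of 6 tryptophan pathway genes, Ahr alone had a row, at 1 to 9 raw counts.

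Known inducers and regulators of Nos2, Ptgs2 and Ido1 (LPS receptor, NF-kB and interferon genes) were read beside the members. Of 27 such genes, 25 had a row and 24 were tested. At 9 Gy day 3, 12 were lower and 3 higher, beside 41.3% lower and 11.2% higher of all genes tested, with a median log2 fold change of -0.61 against -0.46. At 9 Gy day 7, 13 were lower and 2 higher, beside 49.1% and 11.9% of all genes, with a median of -0.61 against -0.45. With total counts the split turned to 3 lower and 9 higher at day 3 and 4 lower and 11 higher at day 7, where 45.0% and 53.2% of all genes were higher. These counts lie near the shares of all genes. Il1b, the interleukin-1 beta gene, fell from 4897 ± 1307 in sham to 201 ± 240 and 213 ± 247 (log2 fold changes -4.53 and -4.52), and Irf7, an interferon regulatory factor, from 4852 ± 403 to 887 ± 350 and 945 ± 307 (-2.44 and -2.36). In the opposite direction, Ifnb1, the interferon beta gene, rose from 22.0 ± 14.5 to 432 ± 263 and 342 ± 171 (log2 fold changes 4.25 and 3.95), and Tyk2, a kinase of the interferon receptor, from 49.0 ± 4.27 to 122 ± 26.98 and 83.5 ± 18.7 (1.28 and 0.76). The raw Ifnb1 counts were 10 to 40 in sham, 37 to 97 in 9 Gy day 3 and 250 to 722 in 9 Gy day 7. These are SDs with n = 3, and the 4 directions were the same with TMM and with total counts. The raw Tyk2 counts were 40 to 57 in sham, 21 to 25 in 9 Gy day 3 and 123 to 167 in 9 Gy day 7. Single samples weighed on these folds. Without replicate 3 of the 9 Gy group, Il1b was at -6.30 at day 3 and -6.11 at day 7, and without replicate 2 of sham, Ifnb1 was at 4.92 and 4.62. With the conflicting samples left out, which leaves 1 sample, the day 3 log2 fold changes were -3.35 for Il1b (adjusted p = 0.0409), -1.94 for Irf7, 2.76 for Ifnb1 (adjusted p = 0.0298) and 1.04 for Tyk2 (adjusted p = 0.0551).

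**Figure D5:**
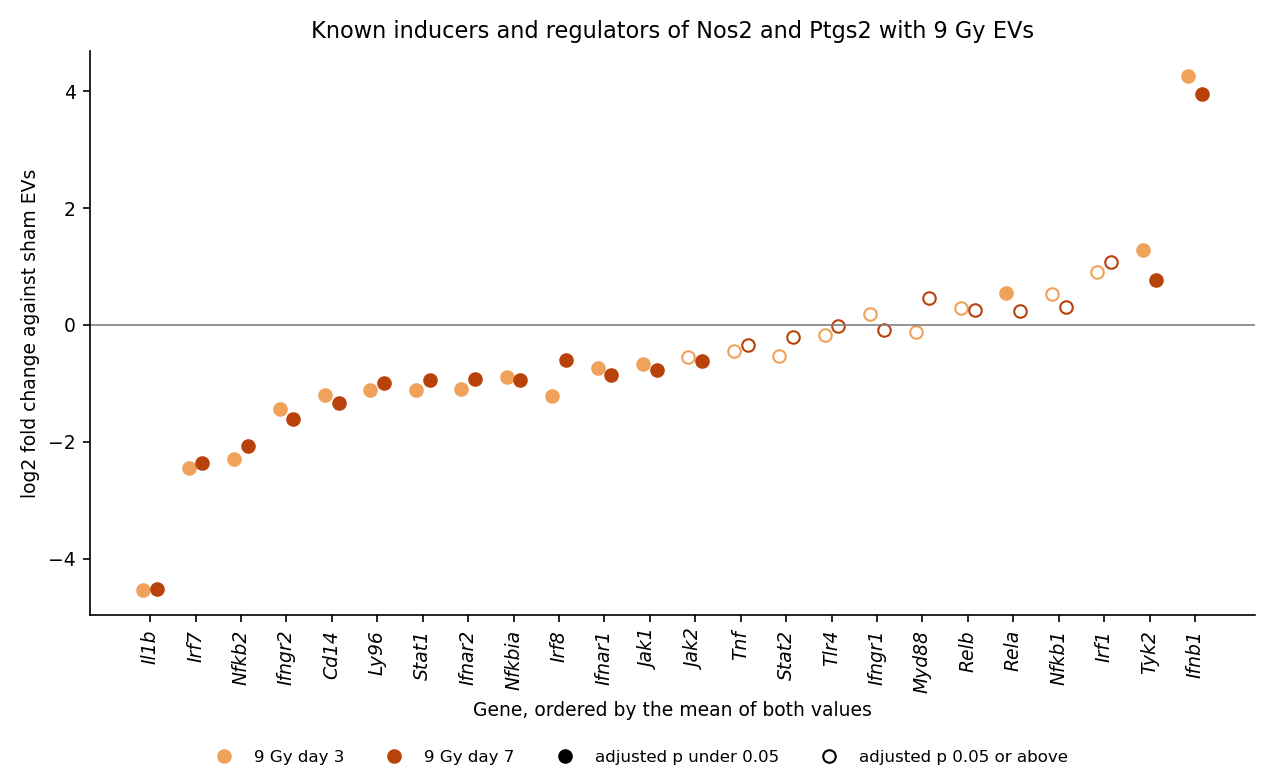
Log2 fold change against sham EVs (vertical axis) of the 24 tested inducers and regulators of Nos2, Ptgs2 and Ido1 for 9 Gy day 3 and 9 Gy day 7 EVs, ordered by the mean of both values. Filled points have an adjusted p under 0.05. Il1b is lowest at -4.53 and -4.52 and Ifnb1 highest at 4.25 and 3.95.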

How the data were processed

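The authors lysed RAW 264.7 cells after 24 h with LPS and EVs, hybridized total RNA to the nanoString nCounter Mouse Immunology panel and normalized in nSolver. The values deposited by the authors and used here are raw counts of 561 genes in 15 samples, not normalized, with a lowest count of 1. Control probes were not used here. The sources differ on the EV number and the lysis reagent.

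Samples were grouped by title. The 269 genes whose mean over all samples was 20 counts or more were tested with edgeR 4.0.16 in R 4.3.3 (quasi-likelihood test, all 15 samples, offsets from 14 housekeeping genes, Benjamini-Hochberg, threshold 0.05). SE is the log2 fold change over the square root of F. Ratios were tested in SciPy 1.17.1. Data were simulated with log2 changes of 1.5 in 80 of 269 genes. Of these 80, 90% were recovered for 9 Gy day 3 against sham and 96.2% for day 7, with 4 and 3 unchanged genes called. The simulated counts took the housekeeping scaling as true and changed no housekeeping gene, so they cannot test the choice of scaling. A log2 change of 1 was also simulated and its result is not reported here. Changes below that, such as those of Ncf4 and Nos2, were not simulated. Named genes were the members, the 2 nearest genes of each by correlation, and of each list the 2 largest rises and falls past the threshold at both days. Outside this rule, list genes too low to test and the macrophage markers were named. The genes of 1 list are not reported here. Members and lists were chosen with earlier results of these data known. Same-numbered samples of the 2 days deviated together (r from 0.392 to 0.782 at 2 Gy and from 0.350 to 0.730 at 9 Gy), so the numbers were taken to pair days within a dose. Different-numbered pairs within a dose reached 0.615 and 0.439. Sham replicate 3 and 2 Gy day 7 replicate 1 reached 0.787, above each same-numbered value within a dose. The pairing comes from the data and not from a label. Against RefSeq, 545 symbols matched, 14 as older names, and 2 did not. Alternatives were median, TMM and total-count scaling, other count filters, DESeq2 1.42.0, a replicate block, the conflicting samples and each sample left out.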

Additional observations from a re-analysis of the deposited data

How the results depend on the processing

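Under total-count scaling, the members called lower went from 3 to 0 at 9 Gy day 3, where 1 member was called (Nos2, higher), and from 3 to 1 (Ptgs2) at 9 Gy day 7 and against 2 Gy EVs, where Nos2 and Ncf4 were called higher. Against 2 Gy EVs, 13.4% of all genes were then lower and 62.5% higher. No other alternative moved the number of members called by over 1.5 times in the 9 Gy comparisons with sham or 2 Gy EVs. A fall from 3 to 2 does not exceed that limit. At 9 Gy day 7, 2 members were called under median scaling, TMM and DESeq2's own size factors. At 2 Gy, day 7 against day 3, the replicate block over the groups compared called 1 member (Cybb). Leaving out 1 sample at a time gave 3 to 4 members called lower in the comparisons of 9 Gy EVs with sham or 2 Gy EVs and 0 in the others. Of all genes tested, 33.5% to 42.8% were lower at 9 Gy day 3, 45.0% to 50.9% at day 7 and 47.2% to 52.8% against 2 Gy EVs in these fits. Without replicate 3 of 9 Gy day 3, Nos2 passed at -0.82 (edgeR, adjusted p = 0.0265), and without replicate 3 of 9 Gy day 7 at -0.64 (adjusted p = 0.0462).

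The Nos2 log2 fold change was 0.11 at 9 Gy day 3 and 0.22 at 9 Gy day 7 under median scaling, 0.11 and 0.21 under TMM, 0.63 and 0.79 under total counts, and 0.11 and 0.22 with DESeq2's own size factors. Against 2 Gy EVs these settings gave 0.048, 0.065, 0.71 and 0.046. With the conflicting samples placed at day 7 or left out, Nos2 at day 3 was 0.23. Ncf4 under total counts was 0.15 at day 3, 0.39 at day 7 and 0.41 against 2 Gy EVs. Genes called at 9 Gy day 3 were 111 lower and 30 higher under housekeeping scaling (78.7% lower), 60 and 59 under TMM and 33 and 121 under total counts. At day 7 they were 132 and 32 (80.5% lower), 76 and 75, and 31 and 143. The cause was not tested.

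The Ptgs2 to Nos2 ratio against sham was -1.71 with the conflicting samples left out, -1.87 with 9 Gy day 7 alone and -1.74 without replicate 3 of both 9 Gy groups (exact permutation tests, adjusted p = 0.0762, 0.133 and 0.0762), the last added after seeing the data. These sample numbers could not reach 0.05, and neither could those left without a sham sample (adjusted p = 0.0952). Leaving out 1 sample gave -1.72 to -1.49. With same-numbered samples of a dose averaged, an alternative added after seeing the data, the differences were those of the report (-1.62 against sham, -1.67 against 2 Gy EVs, and -0.43 for Cybb to Ncf4 against 2 Gy EVs), each with adjusted p = 0.133 in exact permutation tests that cannot go below 0.1 unadjusted. The Cybb to Ncf4 ratio against 2 Gy EVs was -0.31 without replicate 3 of both 9 Gy groups. With the replicate block, Nos2 against 2 Gy EVs was -0.45 with all groups in the fit and -0.47 with the groups compared (adjusted p = 0.0297 and 0.0267), but same-numbered 2 Gy and 9 Gy samples of the same day did not all deviate together (r from -0.124 to 0.266), so the numbers were not taken to pair the doses. Apart from this call and that of Cybb at 2 Gy above, the block changed no member's call. The other 4 planned ratios were not run. Depth limits the 9 Gy day 3 samples, where 96 to 137 of 269 tested genes had under 20 counts.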
